A study of Mus musculus with 24 samples.

Results

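The 9 genes described here carry or regulate the handling of phosphate and vitamin D by the kidney. They are the sodium-phosphate cotransporters Slc34a1, Slc34a3, Slc20a1 and Slc20a2, the scaffold protein gene Slc9a3r1, the vitamin D hydroxylases Cyp27b1 and Cyp24a1, the vitamin D receptor gene Vdr and the Klotho gene Kl. They were taken by name, not by a ranking of values, from the 55335 genes counted. The choice was made with earlier results of these data known. All 9 were among the 16092 genes with enough reads to be tested.

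Whole kidneys of 24 C57BL/6J mice were sequenced, 6 in each of 4 groups. All mice carried the Pex5lox/lox alleles. All received DOX (doxycycline) over 2 weeks, starting when they were 8 weeks old, and their kidneys were collected 4 weeks later, at ZT9 by the labels of the RNA extraction, which counts hours from light on, while the labels on housing place all experiments at ZT3. The cKOm (male) and cKOf (female) mice also carried Pax8-rtTA, a DOX-dependent activator driven by the Pax8 promoter in the renal tubule, and LC1, the Cre recombinase gene that it switches on. The Ctrlm (male) and Ctrlf (female) mice were littermates with neither transgene, so loss of Pex5, the import receptor of peroxisomal matrix proteins, and carriage of the transgenes cannot be told apart.

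Phosphate filtered by the kidney is taken back across the brush border of the proximal tubule, mainly by NaPi-2a (Slc34a1) and NaPi-2c (Slc34a3). Parathyroid hormone (PTH) and the bone hormone FGF23, which needs Klotho as its co-receptor, withdraw these carriers from the membrane. The same tubule cells make active vitamin D with the 1-alpha-hydroxylase CYP27B1 and break it down with the 24-hydroxylase CYP24A1, and the hormone acts through the receptor VDR.

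Reads counted on genes ranged from 19376152 to 28470831 per kidney, and values are given as CPM (the count of a gene relative to the TMM-scaled library total). Pex5 itself ranged from 41.8 to 47.3 CPM in cKOm and from 49.1 to 62.8 CPM in Ctrlm mice, without overlap. In females it ranged from 38.0 to 48.5 CPM in cKOf and from 43.0 to 61.7 CPM in Ctrlf mice, with overlap. These reads come from all exons and all cells, so they do not measure the excised exon. All 12 proximal tubule markers were detected in every group, and their summed level ranged from 10538 to 14031 CPM. The 10 hepatocyte markers, which include albumin, summed to between 366 and 865 CPM in 4 Ctrlm kidneys (replicates 1 to 4) and to 385 CPM in 1 cKOm kidney (replicate 4), against 28.9 to 89.8 CPM in the other 19 kidneys. Male fold changes without these 5 kidneys are given after those of all kidneys.

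Per kb of exon, the level that allows genes to be compared, Slc34a1 was the most abundant of the 9 transcripts and Cyp27b1 the least. In Ctrlm mice Slc34a1 stood at 802 ± 75.4 CPM per kb (mean ± SD, n = 6), 62.6 times the mean of its paralogue Slc34a3 (12.8 ± 3.18) and 309 times that of Cyp27b1 (2.59 ± 1.78). Slc9a3r1 (123 ± 18.02), Kl (87.8 ± 16.01), Vdr (59.3 ± 4.84) and Cyp24a1 (47.9 ± 18.5) came between them, followed by Slc20a2 (7.93 ± 1.42) and Slc20a1 (7.50 ± 0.995) below Slc34a3. The means kept this order in all 4 groups. The neighbours Slc20a2 and Slc20a1 overlapped between kidneys in every group, as did Cyp24a1 and Slc34a3 in every group other than Ctrlm. In Ctrlm, Slc9a3r1 overlapped with Kl, Vdr with Cyp24a1, Slc34a3 with Slc20a2, and Slc20a1 with Cyp27b1. The gap between Slc34a1 and Slc9a3r1 was free of overlap in each group.

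**Figure D1:**
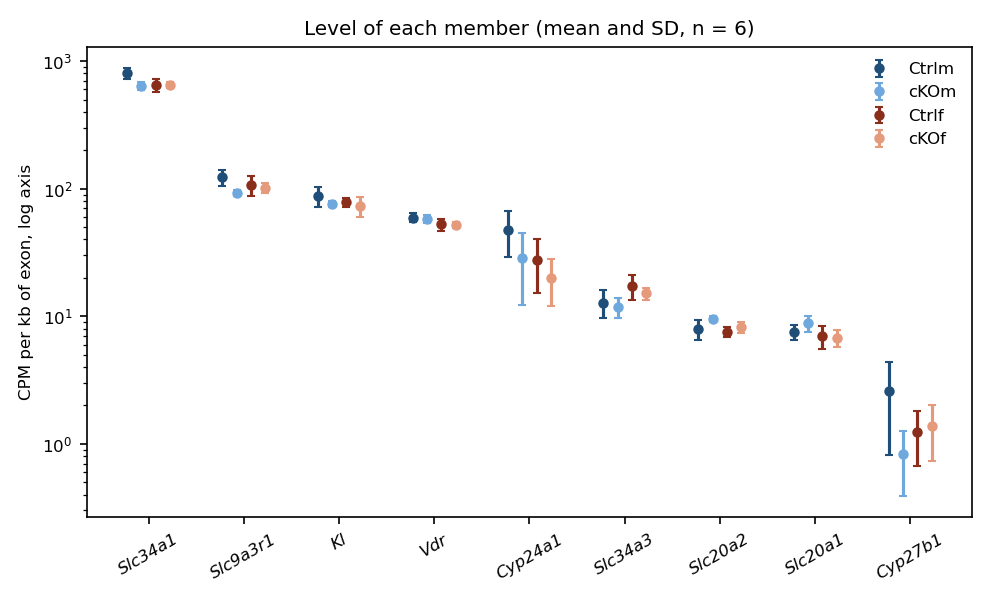
Mean level of each gene in CPM per kb of exon on a log axis, with the SD over 6 kidneys of each group. Slc34a1 lies far above the rest, at 637 to 802 CPM per kb, and Cyp27b1 lowest, at 0.831 to 2.59.

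In males, 3 of the 9 transcripts were lower in cKOm than in Ctrlm mice and none was higher. They were Slc34a1, its scaffold Slc9a3r1 and Cyp27b1. Over all tested genes, 9.05% passed the same threshold (edgeR quasi-likelihood test, adjusted p under 0.05), 4.14% as higher and 4.9% as lower. At an unadjusted p under 0.05, 4 of the 9 passed against 25.1% of all genes, the fourth being Slc20a2. Only Slc34a1 had no overlap between the groups, against 7.38% of all genes. The median log2 fold change was -0.21 over the 9 genes and 0.01 over all genes tested. In whole kidney RNA, fewer cells of a type and less RNA per cell cannot be told apart.

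The 250 bases before the RefSeq start of the 3 genes that were lower in cKOm males are shown because these genes moved in the same direction. They are from RefSeq on GRCm38.p6, all on the plus strand, and 7 of the 9 genes matched an entry. Capitals mark matches to the letters searched for on both strands. GTTAAT stands for an HNF1 half-site. The GC box was searched for as GGGCGG. For the half-site of nuclear receptors the letters were AGGTCA. The last motif was TATAAA, the core promoter element of that name. The window of Slc34a1 is chr13:55399398-55399647, inside the annotated gene and 1211 bases after its first annotated start, in no annotated exon. That of Slc9a3r1 is chr11:115163091-115163340, directly before the annotated gene. That of Cyp27b1 is chr10:127047996-127048245, ending 4 bases short of the annotated gene.
Slc34a1: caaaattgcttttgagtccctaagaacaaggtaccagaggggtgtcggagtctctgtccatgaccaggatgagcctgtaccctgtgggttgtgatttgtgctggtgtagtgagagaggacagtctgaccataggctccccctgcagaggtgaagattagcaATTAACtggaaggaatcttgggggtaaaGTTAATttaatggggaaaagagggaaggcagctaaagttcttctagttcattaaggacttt
Slc9a3r1: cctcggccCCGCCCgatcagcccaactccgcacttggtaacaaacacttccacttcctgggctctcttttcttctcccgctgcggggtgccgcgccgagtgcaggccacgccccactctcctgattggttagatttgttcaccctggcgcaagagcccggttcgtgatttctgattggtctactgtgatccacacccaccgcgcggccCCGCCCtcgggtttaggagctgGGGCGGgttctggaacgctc
Cyp27b1: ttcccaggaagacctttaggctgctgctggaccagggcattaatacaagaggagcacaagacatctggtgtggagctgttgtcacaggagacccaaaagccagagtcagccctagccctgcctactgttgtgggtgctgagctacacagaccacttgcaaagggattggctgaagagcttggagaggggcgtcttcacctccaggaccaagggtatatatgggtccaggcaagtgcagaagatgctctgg

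The proximal promoter of Slc34a1 held GTTAAT at 2 places, starting 61 and 89 bases before the start. These letters were found in 6.43% of 32851 windows of the same length, and among the 7 genes with a window in that of Slc34a1 alone. Slc9a3r1 held GGGCGG at 3 places, a match shared by 32.7% of all windows and by Kl, Slc20a1 and Vdr. AGGTCA (14.02% of all windows) was found before Slc34a3 and Slc20a1, and TATAAA (12.4%) before none of the 7. The Cyp27b1 window matched none of the 4. These are letter matches without a measurement of binding, and the windows of the 3 genes shared no match.

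Slc34a1 encodes NaPi-2a, the main phosphate carrier of the brush border (ENSMUSG00000021490, chr13:55398187-55415592, plus strand). Its lowest, median and highest levels were 3392, 3703 and 4400 CPM in Ctrlm mice and 2617, 3030 and 3251 CPM in cKOm mice. Every cKOm kidney lay below every Ctrlm kidney. The log2 fold change was -0.33 (95% confidence interval -0.49 to -0.17, edgeR adjusted p = 0.00778), a change of -20.6%. The exact two-sided permutation test gave p = 0.00216, the smallest that 6 mice against 6 allow. Leaving out any 1 of the 24 kidneys kept the adjusted p between 0.00400 and 0.0297. Pfn3, on the opposite strand, shares 11.7% of the exon length of Slc34a1 but had at most 23 counts in a kidney.

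Slc9a3r1 encodes NHERF1, which anchors NaPi-2a at the brush border and takes part in its withdrawal by PTH (ENSMUSG00000020733, chr11:115163341-115181181, plus strand). Its lowest, median and highest levels were 188, 237 and 286 CPM in Ctrlm and 167, 178 and 189 CPM in cKOm mice. Of the 6 cKOm kidneys, 5 lay below the whole Ctrlm range, and the overlap came from Ctrlm replicate 2 alone. The log2 fold change was -0.41 (95% confidence interval -0.62 to -0.20, edgeR adjusted p = 0.0159). The exact two-sided permutation test gave p = 0.00433. Without Ctrlm replicate 3, which had the highest level, the log2 fold change was -0.35 and the edgeR adjusted p 0.0554.

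Cyp27b1 encodes the enzyme that makes active vitamin D (ENSMUSG00000006724, chr10:127048250-127053006, plus strand). Its lowest, median and highest levels were 3.07, 5.34 and 15.5 CPM in Ctrlm and 0.718, 1.94 and 4.03 CPM in cKOm mice. Of the 6 cKOm kidneys, 5 lay below every Ctrlm kidney, and cKOm replicate 1 lay inside the Ctrlm range. The log2 fold change was -1.64 (95% confidence interval -2.45 to -0.82, edgeR adjusted p = 0.0118), with a mean of 6.67 ± 4.58 CPM in Ctrlm and 2.14 ± 1.13 CPM in cKOm mice (SD, n = 6). The exact two-sided permutation test gave p = 0.00649. The transcript was scarce, with 70 to 314 counts in Ctrlm and 15 to 88 counts in cKOm kidneys, above the 3 counts taken as the floor of detection. The highest value belonged to Ctrlm replicate 3, and without it the log2 fold change was -1.19 and the edgeR adjusted p 0.0634.

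**Figure D2:**
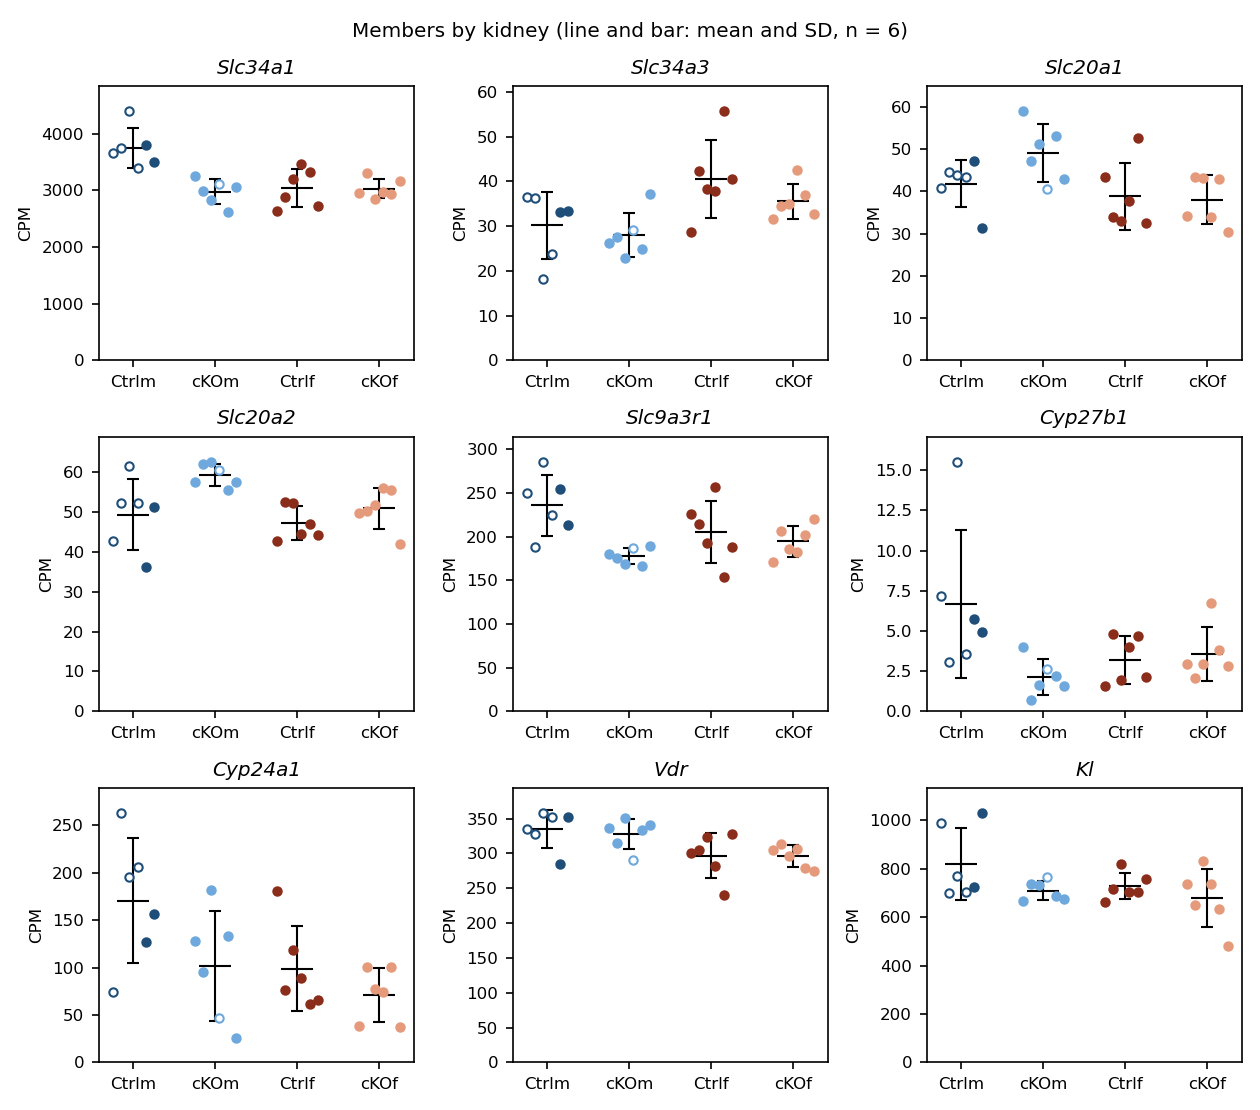
Level in CPM of each of the 9 genes in every kidney, by group, on axes that start at 0, with mean and SD (n = 6). Open points are the 5 male kidneys with over 100 CPM of hepatocyte markers; Slc34a1 separates Ctrlm from cKOm without overlap, and 5 of 6 cKOm kidneys lie below the Ctrlm range for Slc9a3r1 and Cyp27b1.

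The other catabolic and signalling genes of vitamin D did not pass the test in males. Cyp24a1, whose enzyme breaks active vitamin D down, had a lowest, median and highest level of 74.3, 176 and 263 CPM in Ctrlm and 26.2, 112 and 181 CPM in cKOm mice. The ranges overlapped widely, with 2 cKOm kidneys below every Ctrlm kidney. The log2 fold change was -0.74 with a 95% confidence interval of -1.49 to 0.0028 (edgeR adjusted p = 0.317). Vdr, the receptor of the hormone, ranged from 284 to 358 CPM in Ctrlm and from 291 to 351 CPM in cKOm mice. All 6 cKOm kidneys lay inside the Ctrlm range, with a log2 fold change of -0.03 (95% confidence interval -0.19 to 0.12, edgeR adjusted p = 0.906). Kl, the co-receptor of FGF23, had a lowest, median and highest level of 700.2, 747 and 1030 CPM in Ctrlm and 665, 709 and 764 CPM in cKOm mice. The groups overlapped, and Ctrlm replicates 1 and 6 stood above all other male kidneys (log2 fold change -0.21, 95% confidence interval -0.43 to 0.02, edgeR adjusted p = 0.367).

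The remaining phosphate carriers did not pass the test in males. Slc34a3 ranged from 18.2 to 36.5 CPM in Ctrlm and from 22.9 to 37.1 CPM in cKOm mice, with a log2 fold change of -0.11 (95% confidence interval -0.43 to 0.20, edgeR adjusted p = 0.805). Its groups overlapped almost completely. Slc20a2, which encodes the widely expressed carrier PiT-2, had a lowest, median and highest level of 36.0, 51.7 and 61.4 CPM in Ctrlm and 55.6, 59.0 and 62.5 CPM in cKOm mice. The cKOm kidneys lay close together and 2 of them exceeded every Ctrlm kidney (log2 fold change 0.26, 95% confidence interval 0.07 to 0.46, edgeR adjusted p = 0.134, unadjusted p = 0.0113). Slc20a1, which encodes PiT-1, ranged from 31.3 to 47.3 CPM in Ctrlm and from 40.6 to 59.0 CPM in cKOm mice. Of the cKOm kidneys, 4 lay above the Ctrlm range, replicate 2 only just, and the log2 fold change was 0.23 (95% confidence interval -0.03 to 0.49, edgeR adjusted p = 0.39). Slc20a2 passed the threshold without Ctrlm replicate 3 (log2 fold change 0.34, edgeR adjusted p = 0.0389) and with the level of proximal tubule markers as a covariate (0.38, adjusted p = 0.0033).

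**Figure D3:**
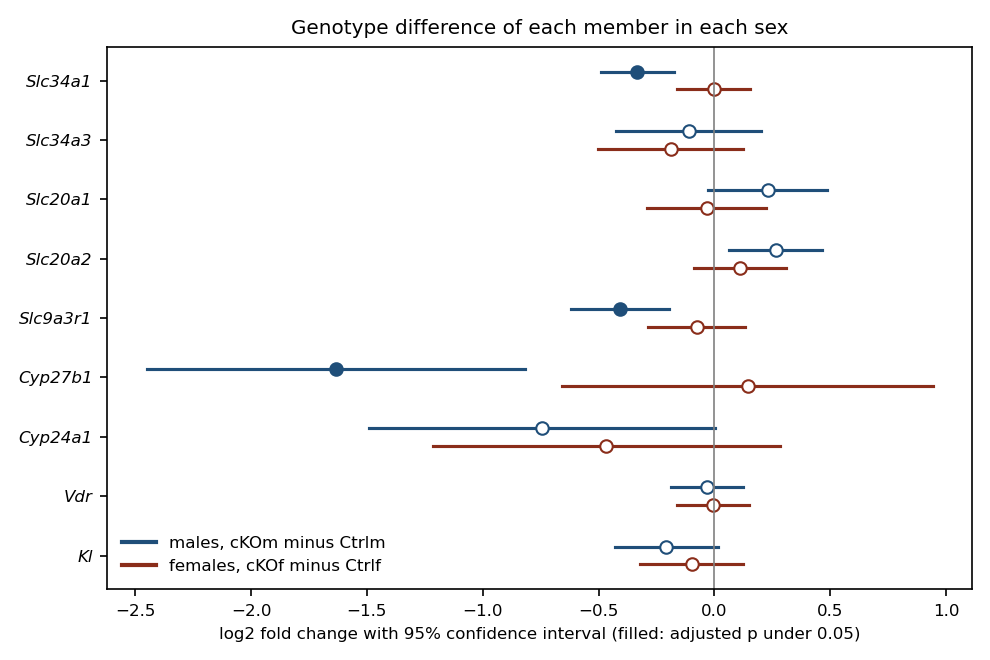
log2 fold change (x axis) of cKO over Ctrl for each gene in males and females, with the 95% confidence interval of the edgeR fit. Filled points have an adjusted p under 0.05; these are Slc34a1, Slc9a3r1 and Cyp27b1 in males, and all female intervals include 0.

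The male comparison was repeated with regard to the markers of liver and of the proximal tubule. Without the 5 kidneys rich in hepatocyte transcripts, which leaves 2 Ctrlm and 5 cKOm mice, the log2 fold changes were -0.34 for Slc34a1, -0.45 for Slc9a3r1 and -1.42 for Cyp27b1. None passed with these few control mice (edgeR adjusted p = 0.138, 0.118 and 0.163), and 0 of the 9 genes were called. Of the other members, Cyp24a1 was at -0.37 without these kidneys in place of -0.74, Vdr at 0.04, Kl at -0.36 and Slc34a3 at -0.30. Slc20a2 was at 0.40 and Slc20a1 at 0.33, and the edgeR adjusted p of these 6 genes ranged from 0.136 to 0.926. With the hepatocyte marker level as a covariate in all 24 kidneys they were -0.29, -0.30 and -1.30, and again none passed (edgeR adjusted p = 0.0942, 0.222 and 0.138). Proximal tubule markers were lower in cKOm males for 4 of the 12, against 4.9% of all genes, and none was higher. The estimate was below 0 for 6 of the 12, and their median log2 fold change was 0.003. Their sum, to which abundant genes contribute most, ranged from 12148 to 13872 CPM in Ctrlm and from 10538 to 11407 CPM in cKOm mice. The covariate made from these markers was their mean log2 CPM, from 9.35 to 9.56 in Ctrlm and from 9.37 to 9.46 in cKOm kidneys. Unlike the sum it overlapped between the groups, so this fit does not adjust for the lower sum. With it the 3 genes passed, with log2 fold changes of -0.31, -0.43 and -1.35 (edgeR adjusted p = 0.0174, 0.0136 and 0.0304). Of the markers of thick limb, distal tubule and collecting duct, 1 of 8 was higher and 1 lower in cKOm males. Among the 7 glomerular and vascular markers 0 passed, where 9.05% of all genes were called. At an unadjusted p under 0.05 in edgeR, 2 of these 7 passed, against 25.1% of all genes. The part that the makeup of the tissue pieces had in these differences was not tested beyond these fits.

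**Figure D4:**
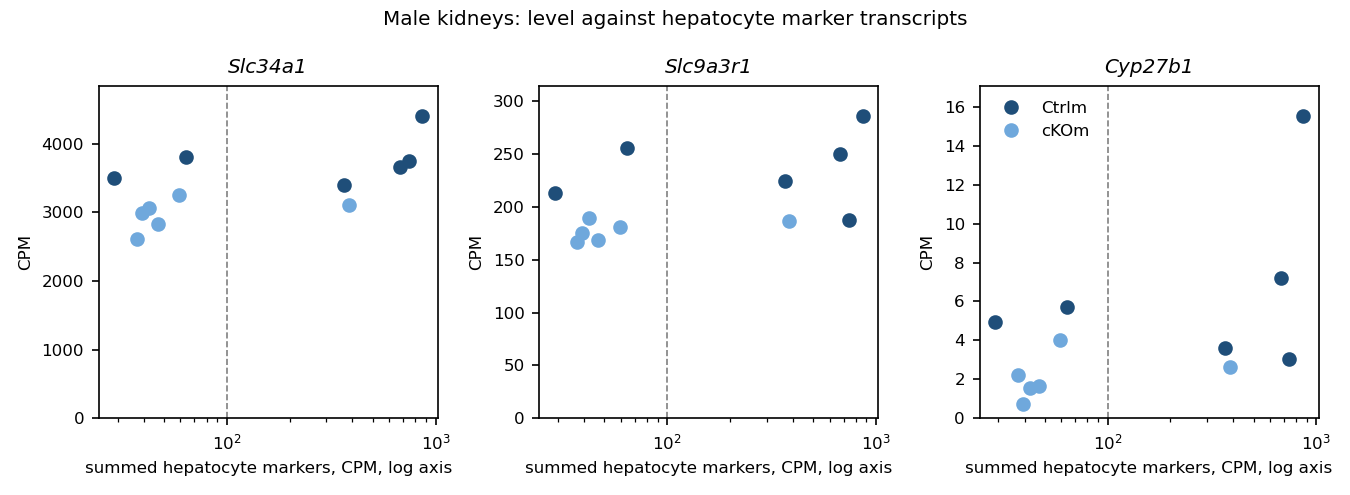
Level in CPM of Slc34a1, Slc9a3r1 and Cyp27b1 (y axes) against the summed CPM of 10 hepatocyte markers (x axis, log scale) in the 12 male kidneys. The dashed line is at 100 CPM; left of it, the 2 Ctrlm kidneys lie above all 5 cKOm kidneys for each of the 3 genes.

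In females, none of the 9 transcripts passed the edgeR test, adjusted or unadjusted, and none passed in limma-voom or DESeq2, while 0.851% of all genes passed with adjustment and 6.73% without. None was free of overlap between cKOf and Ctrlf mice, against 0.559% of all genes. The largest estimate was that of Cyp24a1, at -0.47 on the log2 scale with a 95% confidence interval of -1.21 to 0.28. Slc34a1 averaged 3037 ± 337 CPM in Ctrlf and 3030 ± 171 CPM in cKOf mice (SD over 6 kidneys), which gave -0.0033 on the log2 scale with an interval of -0.16 to 0.15. Slc9a3r1 was at 205 ± 35.4 CPM in Ctrlf and 195 ± 18.1 CPM in cKOf mice, with an interval of -0.29 to 0.13 on the log2 scale. Cyp27b1 was at 3.20 ± 1.47 CPM in Ctrlf and 3.56 ± 1.67 CPM in cKOf mice, with an interval of -0.66 to 0.94 that includes changes of considerable size in both directions. The median log2 fold change over the 9 genes was -0.03, and 0.00 over all genes.

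A direct test asked whether the effect differed between males and females, and none of the 9 genes passed with adjustment, against 2.31% of all genes. At an unadjusted p under 0.05, 3 of the 9 passed against 13.4% of all genes. They were the 3 genes called in males. The male effect minus the female effect was -0.33 for Slc34a1 (edgeR adjusted p = 0.126), -0.33 for Slc9a3r1 (adjusted p = 0.308) and -1.78 for Cyp27b1 (adjusted p = 0.0963). A difference between the sexes in the effect was thus not shown for any of them. DESeq2 gave Cyp27b1 an adjusted p of 0.024 for this difference, and limma-voom called none of the 9.

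Between the sexes, Slc34a1 was higher in Ctrlm than in Ctrlf mice by 23.5% (log2 difference 0.30, 95% confidence interval 0.15 to 0.46, edgeR adjusted p = 0.00575). It was the only one of the 9 to pass this comparison, in which 16.8% of all genes passed. Of the 6 Ctrlm kidneys, 5 lay above every Ctrlf kidney. None of the 9 genes was free of overlap between these groups, against 7.35% of all genes. At an unadjusted p under 0.05, 5 of the 9 passed against 28.1% of all genes. The others were Slc34a3, at -0.42 (adjusted p = 0.0559), Cyp27b1 at 1.05 (0.0631), Cyp24a1 at 0.79 (0.150) and Vdr at 0.18 (0.120), all as log2 differences of Ctrlm minus Ctrlf. Without Ctrlm replicate 3 the difference of Cyp27b1 was 0.61. Without the 5 kidneys rich in hepatocyte transcripts the difference of Slc34a1 was 0.29 and its edgeR adjusted p 0.101.

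Between cKOm and cKOf mice none of the 9 genes passed, against 8.14% of all genes, and none was free of overlap, against 6.77%. At an unadjusted p under 0.05, 3 passed against 21.7% of all genes, namely Slc20a1 at 0.37 (edgeR adjusted p = 0.0690), Slc20a2 at 0.22 (0.176) and Slc34a3 at -0.35 (0.177), as log2 differences of cKOm minus cKOf. DESeq2 called Slc20a1 (adjusted p = 0.0484) and limma-voom none. Slc34a1 differed by -0.02 on the log2 scale, with an interval of -0.18 to 0.13. Its mean was 3751 CPM in Ctrlm mice and 2978, 3037 and 3030 CPM in cKOm, Ctrlf and cKOf mice. The comparisons of Ctrlm with cKOm and with Ctrlf use the same 6 Ctrlm kidneys.

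The balance of related genes within a kidney was described by log2 ratios of their CPM. Cyp27b1 to Cyp24a1, the synthesizing over the degrading enzyme, averaged -4.77 ± 1.19 in Ctrlm mice (SD over 6 kidneys) and -5.41 ± 1.26 in cKOm mice, with -4.93 ± 1.18 for Ctrlf and -4.28 ± 0.82 for cKOf. The ranges overlapped among all groups. Slc34a1 to Slc34a3 averaged 6.99 ± 0.49 in Ctrlm and 6.74 ± 0.21 in cKOm mice, and 6.24 ± 0.26 in Ctrlf and 6.41 ± 0.19 in cKOf mice. Every Ctrlm kidney exceeded every Ctrlf kidney in this ratio, from 6.65 to 7.91 against 5.89 to 6.52. Slc20a1 to Slc20a2 averaged between -0.43 and -0.23 in the 4 groups, with SDs of 0.19 to 0.38. No test was made on these ratios.

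Among 4 other genes of phosphate or pyrophosphate transport, 2 were higher in cKOm than in Ctrlm mice and none lower. Over all tested genes, 9.05% were called in this comparison, 4.14% as higher, and 7.38% had no overlap between the groups. Slc34a2, which encodes NaPi-2b, a paralogue of Slc34a1 best known from intestine and lung, had a lowest, median and highest level of 2.08, 2.97 and 4.29 CPM in Ctrlm and 5.44, 6.67 and 8.44 CPM in cKOm mice. Every cKOm kidney exceeded every Ctrlm kidney, in the direction opposite to Slc34a1 (log2 fold change 1.12, standard error 0.16, edgeR adjusted p = 4.5e-05). Without the 5 kidneys rich in hepatocyte transcripts it was 1.05 (adjusted p = 0.0178). In females it was -0.39 (adjusted p = 0.203), from 6.31 ± 0.676 CPM in Ctrlf to 4.81 ± 0.732 CPM in cKOf mice, and the difference of the effects, 1.51, passed the test (edgeR adjusted p = 0.000233). Ctrlm mice were also below Ctrlf mice without overlap (log2 difference -0.99, edgeR adjusted p = 5.8e-05), in a comparison that uses the same Ctrlm kidneys. Ank, which encodes a membrane protein that exports ATP and pyrophosphate, was at 8.46 ± 1.51 CPM in Ctrlm and 11.6 ± 1.12 CPM in cKOm mice (log2 fold change 0.45, edgeR adjusted p = 0.0248).

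Of the 8 partners of NaPi-2a at the membrane, 1 was higher and none lower in cKOm males, a share near the 9.05% of all genes called in this comparison. Shank2, which encodes a scaffold with a PDZ domain, was at 57.4 ± 13.9 CPM in Ctrlm and 79.1 ± 6.24 CPM in cKOm mice (SD, n = 6), with overlap (log2 fold change 0.46, edgeR adjusted p = 0.0387). Of the 19 genes of PTH and FGF23 receptors and signalling, 17 were tested, and 2 were higher and none lower in cKOm males, again near the 9.05% of all genes. Bace1, whose protease can cut Klotho from the membrane, ranged from 35.7 to 43.3 CPM in Ctrlm and from 45.1 to 53.4 CPM in cKOm mice, without overlap (0.31, edgeR adjusted p = 0.0123). Adcy6, an adenylyl cyclase that serves PTH signalling, was at 199 ± 26.6 CPM in Ctrlm and 245 ± 15.6 CPM in cKOm mice (0.30, edgeR adjusted p = 0.0459). The call of Adcy6 was lost under 24 of 35 alternatives, that of Shank2 under 12, that of Ank under 9 and that of Bace1 under 4. Without the 5 kidneys rich in hepatocyte transcripts the log2 fold changes were 0.38 for Adcy6, 0.38 for Shank2, 0.44 for Ank and 0.30 for Bace1, with edgeR adjusted p of 0.136, 0.458, 0.300 and 0.225. Fgf23 had no counts in any kidney, and Klb, the other gene of this list that was not tested, reached at most 0.607 CPM.

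Vitamin D reaches the tubule cell through the endocytic receptors megalin and cubilin, and 15 genes of its uptake, activation and receptor partners were tested. In cKOm males 1 was higher and 2 were lower, where 4.14% of all genes were called higher and 4.9% lower. Lrp2, which encodes megalin, ranged from 2472 to 2895 CPM in Ctrlm and from 1838 to 2210 CPM in cKOm mice (log2 fold change -0.33, edgeR adjusted p = 0.0192). Cyp27a1, a mitochondrial sterol hydroxylase that can act on vitamin D at position 25 of the molecule, ranged from 37.3 to 48.7 CPM in Ctrlm and from 28.4 to 36.2 CPM in cKOm mice (-0.46, edgeR adjusted p = 0.00604). Dab2, an adaptor of megalin endocytosis, ranged from 675 to 857 CPM in Ctrlm and from 953 to 1141 CPM in cKOm mice (0.45, edgeR adjusted p = 0.000496). The groups of these 3 genes did not overlap, as held for 7.38% of all genes. Without the 5 kidneys rich in hepatocyte transcripts they were at -0.42, -0.50 and 0.42, with edgeR adjusted p of 0.108, 0.110 and 0.0804. With the hepatocyte marker covariate Cyp27a1 was at -0.30 and lost its call (edgeR adjusted p = 0.164), while Lrp2 and Dab2 kept theirs. The call of Lrp2 was lost under 3 of 35 alternatives, that of Cyp27a1 under 2 and that of Dab2 under 1.

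**Figure D5:**
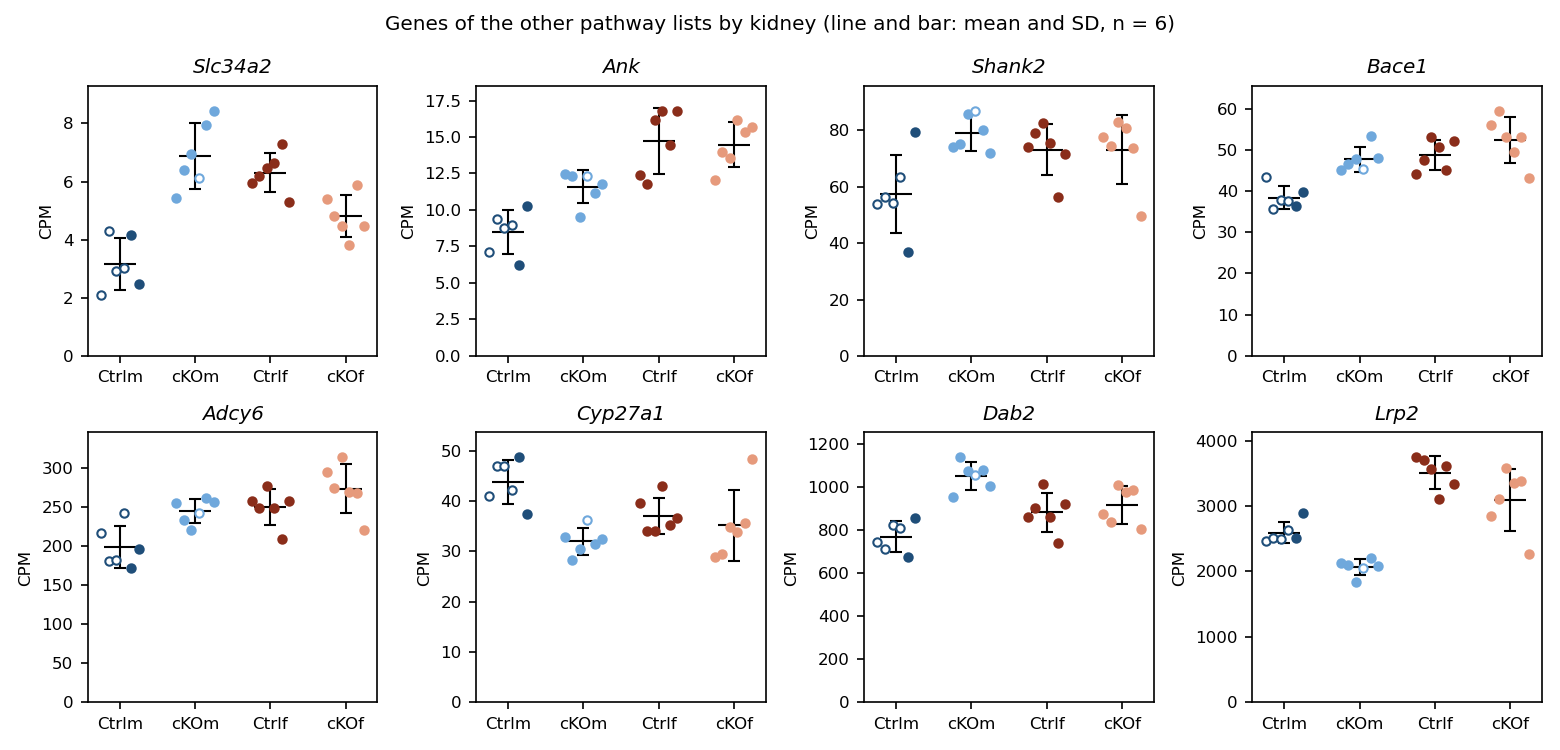
Level in CPM of the 8 genes from the other pathway lists that passed in males, by kidney and group, with mean and SD (n = 6) and open points for the 5 kidneys with over 100 CPM of hepatocyte markers. Slc34a2, Bace1, Dab2, Lrp2 and Cyp27a1 separate cKOm from Ctrlm without overlap.

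None of the 9 calcium-handling genes that respond to vitamin D passed in males (3 at an unadjusted p under 0.05 in edgeR, against 25.1% of all genes), and their median log2 fold change was 0.18. In females none of the genes in these 5 lists passed the edgeR test, with 1, 0, 1, 2 and 1 of them at an unadjusted p under 0.05, in the order in which the lists appear, against 6.73% of all genes. Of these genes, only Slc34a2 passed the test of a difference between the sexes' effects.

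The genes whose level followed each member most closely over the 24 kidneys were found among 14064 others by Pearson's r of log2 CPM. Slc34a1 was followed by Ttc39c (r = 0.87) and Frzb (0.85), both lower in cKOm males with log2 fold changes of -1.28 and -1.69 (edgeR adjusted p = 1.6e-07 and 4.6e-06). Slc9a3r1 was followed by Acbd4 (0.89) and Aup1 (0.87), also lower in cKOm males by the edgeR test (-0.63, adjusted p = 0.00213 and -0.29, adjusted p = 0.0474). Cyp27b1 was followed by Ppp1r16a (0.71) and Tmem120a (0.70), which were lower in cKOm males at -0.45 (edgeR adjusted p = 0.00872) and -1.14 (adjusted p = 3.4e-07). Of the genes nearest to the other members, Leng8 alone passed in males (0.30, edgeR adjusted p = 0.0302). These nearest genes were Smim6 (0.81) and Slc6a13 (0.79) to Slc34a3, Tsnax (0.75) and Atl2 (0.72) to Slc20a1, and Zmym3 (0.87) and Leng8 (0.86) to Slc20a2. Aim2 (0.75) and Ikzf1 (0.71) were nearest to Cyp24a1, Malt1 (0.82) and Srr (0.81) to Vdr, and Ano6 (0.77) and App (0.74) to Kl. The kidneys share their groups and the makeup of the tissue, and the values are descriptions. Group means were not removed, so a gene picked for likeness to a member called in males tends to share its group pattern. The calls of such nearest genes are therefore no separate support. Spearman's rho was lower than r for some pairs, such as 0.44 for Kl with Ano6.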

How the data were processed

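Whole-kidney RNA of 24 mice was sequenced, and the labels placed 6 mice each in Ctrlm, cKOm, Ctrlf and cKOf. The authors trimmed reads with cutadapt 1.8, aligned them to GRCm38 with STAR 2.5.3a and deposited 1 file per kidney with the counts of reads per gene made by HTSeq 0.9.1, without normalization. The strand setting of the counting is not given in the sources used here. From 34.0% to 41.5% of reads were not assigned to a gene and were set aside.

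Tests were run in R 4.3.3 on genes that reached 1 CPM in 1 or more kidneys, with edgeR 4.0.16 (TMM, 1 model of 4 groups, quasi-likelihood tests). Benjamini-Hochberg adjustment covered both knockout comparisons jointly and each other comparison on its own, with a threshold of 0.05. Values of log2 CPM used a prior count of 2. Simulated data had 200 changed genes of 15709, each with a log2 fold change of 1 up or down in both sexes. The male test recovered 136 of them with 6 false calls. Smaller changes, which include most of those described here, were not simulated. Replicates are separate mice, and any pair within a group differed beyond sampling noise (chi-square per degree of freedom of at least 9.24), so p-values measure the spread between mice. Names, positions and exon lengths are those of GENCODE for GRCm38.

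The 9 genes and the other lists were chosen with earlier results of these data known. From each other pathway list, up to 4 genes with the largest log2 fold change past the threshold were named per sex, and for likeness the 2 genes with the highest r and a mean of at least 1 CPM. Alternatives were limma-voom (limma 3.58.1), DESeq2 1.42.0, RLE normalization, no filter, at least 1 CPM in at least 6 kidneys, the compared groups fitted alone, adjustment within each comparison, a replicate block, marker covariates, a prior count of 0.5 for the ratios, and each kidney left out. The fit without kidneys over 100 CPM of hepatocyte markers was chosen after seeing the data.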

Additional observations from a re-analysis of the deposited data

Results flagged for a closer look

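Dixon's test of the lowest and highest kidney was applied to 72 groups of 6 kidneys, and 4 stood out, where chance gives about 1 in 20 groups. Slc20a1 was at 31.3 CPM in Ctrlm replicate 6, against 40.7 to 47.3 CPM in the other Ctrlm kidneys. Vdr was at 284 CPM in Ctrlm replicate 5, against 329 to 358 CPM in the others. Shank2 was at 56.2 CPM in Ctrlf replicate 5, against 71.6 to 82.6 CPM in the others, and at 49.6 CPM in cKOf replicate 6, against 73.9 to 82.8 CPM in the others. The effect of the knockout on Slc34a2 differed between the sexes, with a male minus female value of 1.51 on the log2 scale (SE 0.23, edgeR adjusted p = 0.000233), which became 1.44 without the 5 hepatocyte-rich kidneys (edgeR adjusted p = 0.00904).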

How the results depend on the processing

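Of the log2 fold changes of the 9 genes and Pex5 under all alternatives, 1654 kept their direction and their side of the threshold, 14 lost the call, 27 gained it and 45 changed sign. Those of the named genes of the other lists kept both in 294 cases and lost the call in 55. Most estimates of the 9 genes and Pex5 were not called at first and so had no call to lose. In males, Slc34a1 lost its call under 2 of 35 alternatives, Slc9a3r1 and Cyp27b1 under 3 each and Pex5 under 4. Between Ctrlm and Ctrlf mice Slc34a1 lost it under 2 of 35. The number of the 9 genes called in males went from 3 to 0 with the hepatocyte marker covariate and to 0 without the 5 hepatocyte-rich kidneys, while it lay between 2 and 3 when any 1 kidney was left out. The call of Pex5 in males (-0.31, edgeR adjusted p = 0.0219) was lost with that covariate, without those 5 kidneys, and without Ctrlm replicate 2 (adjusted p = 0.0656) or cKOm replicate 4 (0.0504). For the difference of the effects, 1 gene was called by DESeq2 and 0 to 1 with a kidney left out, in both cases Cyp27b1 (without cKOm replicate 1, -2.06, edgeR adjusted p = 0.0489). Between Ctrlm and Ctrlf mice the number was 0 with the hepatocyte covariate, 0 without the 5 kidneys, 3 with the proximal tubule covariate, 2 by limma-voom, 4 by DESeq2 and 1 to 3 with a kidney left out. Between cKOm and cKOf mice it was 1 with the replicate block (Slc20a1, edgeR adjusted p = 0.0247), 1 with the proximal tubule covariate, 1 by DESeq2, 2 with the groups fitted alone and 0 to 1 with a kidney left out. In females it was 0 with any kidney left out. The causes of these changes were not tested.

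The changes of sign, given here as log2 fold changes, concerned estimates that had not passed the test. In males, Vdr was 0.0054 with the proximal tubule covariate, 0.042 without the 5 kidneys and -0.074 to 0.0012 with a kidney left out. In females, Vdr was 0.0010 with the replicate block, 0.047 with the proximal tubule covariate, 0.0013 by limma-voom and -0.057 to 0.025 with a kidney left out. Slc34a1 in females was 0.026 with the proximal tubule covariate, 0.0025 by limma-voom and -0.041 to 0.029 with a kidney left out, which also moved Slc20a1 between -0.079 and 0.077 and Cyp27b1 between -0.14 and 0.29. For the difference of the effects, Slc34a3 was -0.0071 with the hepatocyte covariate, -0.099 without the 5 kidneys and -0.061 to 0.16 with a kidney left out. Without the 5 kidneys this difference was 0.11 for Cyp24a1 and 0.052 for Vdr, the latter being -0.069 to 0.0063 with a kidney left out. Between Ctrlm and Ctrlf mice, Slc20a2 was -0.088 without the 5 kidneys and -0.0074 to 0.14 with a kidney left out. Between cKOm and cKOf mice, Slc34a1 was 0.011 with the proximal tubule covariate and -0.051 to 0.014 with a kidney left out, and Kl -0.018 to 0.13. Pex5 was -0.0019 there with at least 1 CPM in at least 6 kidneys, -0.0097 with the proximal tubule covariate and -0.031 to 0.039 with a kidney left out.

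Over all genes, the calls in males went from 1456 to 839 with the hepatocyte covariate and 599 without the 5 kidneys. In females they went from 137 to 43 with adjustment within the comparison and 83 without the 5 kidneys. For the difference of the effects they went from 372 to 574 by DESeq2, and between Ctrlm and Ctrlf mice from 2707 to 1690 and 1570 under the hepatocyte settings. No sign of pairing by replicate number was seen. Same-numbered kidneys correlated at -0.20 to 0.12, and in 3 of 24 cases a kidney matched its own number best. Whether the numbers mark a shared litter or order of handling was not tested. The block gave 1268 calls in males. The mean ratios moved by less than 1 SD under every setting run. This limit could hardly be passed, so it says little about their stability. Leaving out a single kidney cannot move a group mean that far, and rescaling a library acts on both genes of a ratio.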

Other observations

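Whether related genes varied together between kidneys of the same group was examined for 4 pairs, using deviations of log2 CPM from the group means over 24 kidneys and permutation tests within groups. Slc34a1 and Slc9a3r1 gave Pearson's r = 0.32 (permutation p = 0.222, adjusted 0.854) and Spearman's rho = 0.34 (permutation p = 0.153, adjusted 0.503), and r was -0.01 without the 2 kidneys farthest from the median. Cyp27b1 and Cyp24a1 gave r = -0.15 (permutation p = 0.528, adjusted 0.854) and rho = -0.26 (permutation p = 0.252, adjusted 0.503). Without the 2 kidneys farthest from the median of Cyp27b1, r was -0.32, and within single groups it ranged from -0.71 to 0.10. Slc34a1 and Slc34a3 gave r = 0.05 (permutation p = 0.854, adjusted 0.854) and rho = 0.11 (permutation p = 0.637, adjusted 0.741). Without the 2 kidneys farthest from the median of Slc34a1, r was 0.45, and within single groups it ranged from -0.53 to 0.52. Slc20a1 and Slc20a2 gave r = -0.07 (permutation p = 0.773, adjusted 0.854) and rho = -0.07 (permutation p = 0.741, adjusted 0.741). Without the 2 kidneys farthest from the median of Slc20a1, r was -0.03, and within single groups it ranged from -0.35 to 0.55. None of the 4 relations passed.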
